A study of Homo sapiens with 12 samples.

Results

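5-Fluorouracil (5-FU) and cisplatin are 2 cancer drugs that damage DNA by different routes and are known to activate p53. Their effects on RNA were set against each other in H460, an established human lung cancer cell line with wild-type p53. The comparison used 6 of the 12 two-channel arrays of a drug series, chosen by their titles: the 4 arrays of 5-FU and the 2 arrays of cisplatin. The other 3 drugs of the series were 0.2 µM cytarabine, 5 nM paclitaxel and 0.2 µM cytochalasin D, each for 24 h. Their arrays helped to estimate the spread and are quoted for some genes. Cells received 1 µM 5-FU or 5 µM cisplatin for 24 h, and every array set the RNA of drugged cells against RNA of H460 cells that got no drug. The doses differ and no dose series was analysed here, so the sizes of the 2 responses are set side by side as given. 5-FU was hybridised in both orientations, with the RNA of drugged cells in channel 2 on 2 arrays and in channel 1 on the other 2; the numbered arrays of opposite orientation were averaged into 2 replicates. Both cisplatin arrays had the RNA of drugged cells in channel 1. Whether separate cultures gave the replicates, and whether the drugs shared their untreated RNA, is not stated. The p-values therefore measure only the spread between arrays, pooled over the 5 drugs of the series.

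All values below are log2 ratios of drugged over untreated RNA, centred on the median of each array, so a gene's value is relative to the typical gene on the same array. The log base is not stated and was taken as 2. The numerator is not stated either: the sign was set for all arrays together so that CDKN1A, MDM2 and the p53 genes' median came out positive in 5-FU. The directions are therefore likely rather than given, and the positive sign of p53 targets in 5-FU is no finding. Values of the 4 5-FU arrays are given with replicates 1 and 2 of the channel 2 orientation first and replicates 1 and 2 of the channel 1 orientation after them. Ratios hold no expression level, so the identity of the cells could not be checked against marker genes.

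p53 is a transcription factor that is stabilised after DNA damage and binds paired half-sites in the DNA of its target genes. Among the targets are CDKN1A, which halts the cell cycle, MDM2 and PPM1D, which switch p53 off again, and genes of DNA repair and cell death. 5-FU is turned into nucleotides that block thymidylate synthase and are built into RNA and DNA. Cisplatin binds purine bases and ties neighbouring ones together, and such adducts are removed mainly by nucleotide excision repair.

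The 250 bases before a start site are shown for 5 genes on which the comparison turns, from the RefSeq promoter table for GRCh38.p14, in which all 5 were found. Capitals mark matches to a motif. In MDM2, which both drugs raised, they mark 2 pairs of adjoining p53 half-sites, each 20 bases long with at most 3 bases off the consensus. They lie 94 to 75 and 56 to 37 bases before the start, in the window of 1 of the 4 starts the table lists for the gene (chr12:68808767-68809016, plus strand), chosen for these matches. In EI24, which both drugs raised, they mark 1 half-site without a mismatch (chr11:125569227-125569476, plus strand). In TNFAIP3 (chr6:137867009-137867258, plus strand) and IL6 (chr7:22726950-22727199, plus strand), which stood higher in cisplatin, they mark kappa B sites. In ASNS (chr7:97872409-97872658, minus strand), which both drugs lowered, they mark a match to TGATGNAA, the core of an amino acid response element. The ASNS window belongs to 1 of the 2 starts listed for the gene and was also chosen for its match.
MDM2: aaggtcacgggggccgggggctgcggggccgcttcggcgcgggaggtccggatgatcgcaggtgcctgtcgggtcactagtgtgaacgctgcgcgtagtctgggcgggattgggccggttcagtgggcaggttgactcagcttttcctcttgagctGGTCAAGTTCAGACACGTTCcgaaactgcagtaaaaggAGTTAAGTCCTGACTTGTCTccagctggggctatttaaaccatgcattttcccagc
EI24: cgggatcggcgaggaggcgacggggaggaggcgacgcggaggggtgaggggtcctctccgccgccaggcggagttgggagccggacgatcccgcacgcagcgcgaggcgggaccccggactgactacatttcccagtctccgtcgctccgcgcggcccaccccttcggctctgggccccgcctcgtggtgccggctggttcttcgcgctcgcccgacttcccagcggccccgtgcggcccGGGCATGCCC
TNFAIP3: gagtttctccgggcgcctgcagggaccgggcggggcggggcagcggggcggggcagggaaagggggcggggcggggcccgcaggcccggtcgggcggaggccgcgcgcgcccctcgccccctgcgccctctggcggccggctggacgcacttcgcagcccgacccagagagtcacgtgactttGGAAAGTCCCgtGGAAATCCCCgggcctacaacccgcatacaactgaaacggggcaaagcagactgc
IL6: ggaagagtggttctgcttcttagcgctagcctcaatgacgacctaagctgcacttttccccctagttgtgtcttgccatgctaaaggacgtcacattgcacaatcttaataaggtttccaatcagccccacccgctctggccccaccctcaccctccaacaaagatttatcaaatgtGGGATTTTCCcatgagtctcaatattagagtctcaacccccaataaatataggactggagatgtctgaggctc
ASNS: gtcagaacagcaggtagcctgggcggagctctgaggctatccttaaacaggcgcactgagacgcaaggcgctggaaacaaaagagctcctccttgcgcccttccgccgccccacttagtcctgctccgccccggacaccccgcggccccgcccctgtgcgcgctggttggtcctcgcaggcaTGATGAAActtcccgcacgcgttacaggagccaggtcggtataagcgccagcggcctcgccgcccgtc
Each motif was searched on both strands, and the p53 motifs read the same on either. Of the 35116 windows of the same length in the table, 4.36% held such a pair of half-sites, 5.57% a half-site without a mismatch, 9.96% a kappa B site and 3.14% TGATGNAA. A match describes the letters and does not show that a factor was bound.

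The 5-FU arrays held 4357 to 6411 of the 8170 probes (21.5 to 46.7% missing) and the cisplatin arrays 7557 and 7644 (7.50 and 6.44% missing). Replicate arrays correlated across probes (Pearson's r) at 0.776 for cisplatin and, within an orientation, 0.627 and 0.678 for 5-FU, while 5-FU arrays of opposite orientation gave 0.488 to 0.527. Differences were tested with limma over all features, with an orientation term that only the 5-FU arrays inform. With this term the tested difference equals that between the 5-FU arrays of the channel 1 orientation and the cisplatin arrays, and the fitted cisplatin ratio moves away from the cisplatin arrays by the orientation effect seen with 5-FU. Both are therefore given beside the array values. Across probes the orientation effect of 5-FU correlated with the cisplatin arrays at r = -0.041 and -0.069 (Pearson). Whether the effect carried over to cisplatin was not tested.

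The direct comparison left 3686 features that could be tested. Of these, 517 (14.0%) passed at an adjusted p under 0.05, 154 (4.18%) higher and 363 (9.85%) lower in 5-FU than in cisplatin. On 127 of them the ratios differed by at least 1, with 23 higher and 104 lower in 5-FU. The 5-FU arrays did not overlap the cisplatin arrays in 1202 of the 3686 features (32.6%), lying above them in 540 (14.7%) and below them in 662 (18.0%), whether or not the test was passed. Arrays of the channel 1 orientation alone allowed 5145 features to be tested, of which 331 (6.43%) were higher and 602 (11.7%) lower in 5-FU. Against untreated RNA, 5-FU raised 170 features (4.44%) and lowered 429 (11.2%) of 3829, and cisplatin raised 417 (8.54%) and lowered 381 (7.80%) of 4883. Without the orientation term 425 of the 517 differences passed too. For 203 of the tested genes the average rested on different probes on different arrays; 30 of these passed, and of the 27 with a probe on all 6 arrays 14 kept the call on such probes alone. With any 1 replicate left out, a large part of the 517 differences no longer passed, the most without the first 5-FU replicate.

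Each feature was put in at most 1 of 4 classes, and a class asks for the drug's sign on every array it rests on. Both drugs moved 103 features (2.79%) the same way, 30 up and 73 down, which is 17.5% of the 590 features that passed for 5-FU and 19.0% of the 542 that passed for cisplatin. Another 220 (5.97%) changed in 5-FU, differed between the drugs and did not pass for cisplatin, and 190 of these were down. In the reverse class of 160 (4.34%), 73 rose and 87 fell in cisplatin. The drugs moved 38 features (1.03%) in opposite directions, 7 of them up and 31 down in 5-FU. "Particular to" a drug means here only against the other of the 2.

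Without the orientation term, 77 of the shared, 170 and 110 of those particular to 5-FU and to cisplatin, and 25 of the opposite features stayed in their class. With the 5-FU arrays of the channel 1 orientation alone 60 of the shared, 185 and 110 of those particular to 5-FU and to cisplatin, and 18 of the opposite features stayed. Leaving out either cisplatin replicate gave totals of 45 shared features, 43 of them among the 103, and of 86 or 89 particular to cisplatin, 66 or 71 of them among the 160. Without the first 5-FU replicate 146 were particular to 5-FU and 97 to cisplatin. The opposite class held 16 or 19 features without the first or the second cisplatin replicate.

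**Figure D1:**
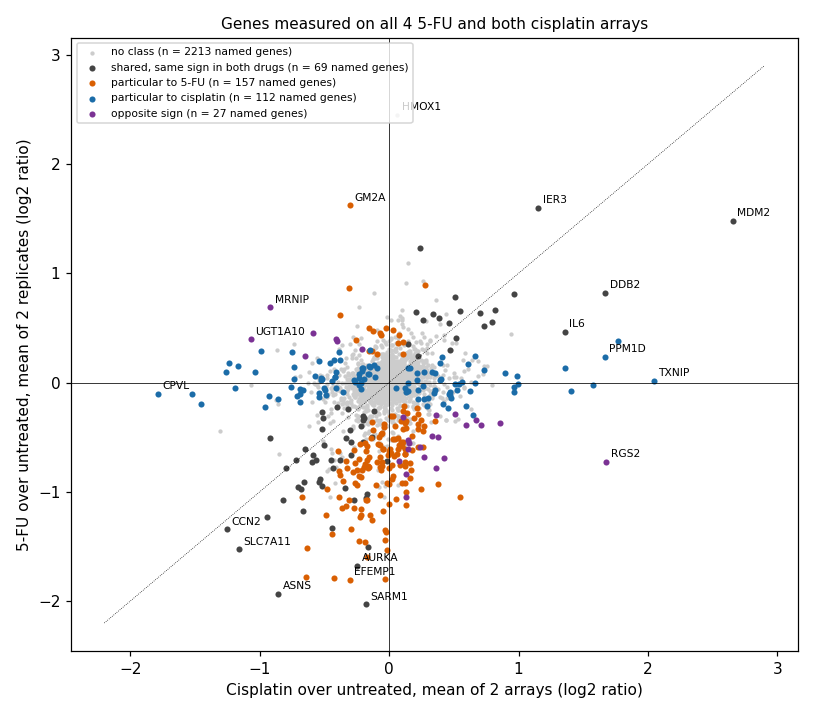
Mean log2 ratio of each named gene in 5-FU (vertical axis, mean of 2 replicates) against cisplatin (horizontal axis, mean of 2 arrays), for genes with a value on all 6 arrays; colours mark the 4 classes and the dotted line marks equal ratios. MDM2 and DDB2 lie right of the line, HMOX1 stands at 2.45 in 5-FU near 0.06 in cisplatin, and RGS2 lies below 0 in 5-FU and at 1.68 in cisplatin.

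Gene lists are described by their counts, beside the 4.18% of all features that were higher and the 9.85% that were lower in 5-FU. In all lists together 64 genes passed, and 32 of them kept the call when each of the 4 replicates was left out in turn. Of the 64, 56 passed without the orientation term and 59 between arrays of the same orientation, where 23 further members passed, 6 higher and 17 lower in 5-FU.

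Of 18 genes listed for p53 feedback and arrest, 8 are on the array and 4 could be tested. MDM2, PPM1D and CCNG1 were lower in 5-FU than in cisplatin, none was higher, and TOB1 did not pass. The median difference of the 4 was -1.25, beside -0.01 over all features tested. MDM2, the ubiquitin ligase that degrades p53, stood at 1.80, 1.63, 1.15 and 1.35 on the 5-FU arrays, against 2.74 and 2.57 on the cisplatin arrays. Every 5-FU array was above 0 and below both cisplatin arrays. The difference was -1.41 ± 0.14 (SE, n = 2 replicates of each drug; limma adjusted p = 0.000828), a 2.65-fold lower ratio in 5-FU. On the arrays of the other 3 drugs of the series (cytarabine, paclitaxel and cytochalasin D) MDM2 lay between -0.39 and -0.04.

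CDKN1A, the inhibitor of cyclin-dependent kinases that p53 induces, had no value on the 5-FU arrays of the channel 2 orientation and could be compared only between arrays of the same orientation. It stood at 2.41 and 2.57 on the remaining 5-FU arrays, against 3.12 and 4.20 on the cisplatin arrays. Both drugs gave high ratios and the groups did not overlap, with a difference of -1.17 ± 0.29 (SE, n = 2 arrays each; limma adjusted p = 0.0288). The 2 cisplatin arrays lay farther apart for this gene than the 2 5-FU arrays.

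PPM1D, the phosphatase that reverses p53 phosphorylation, averaged 0.36, 0.26, 0.11 and 0.22 over its probes on the 5-FU arrays, against 1.71 and 1.62 on the cisplatin arrays. All 5-FU arrays lay well below both cisplatin arrays, and the difference was -1.50 ± 0.19 (SE; limma adjusted p = 0.00193). Its 3 probes disagreed. The only one with a value on all 6 arrays gave 0.09 and 0.07 in cisplatin and a difference of -0.08 that did not pass (limma adjusted p = 0.568). The second probe gave 0.43, 0.49 and -0.14 on 3 5-FU arrays, against 2.72 and 2.36 in cisplatin, and the third gave 0.43, -0.12 and 0.75, against 2.33 and 2.42 in cisplatin. Both 5-FU arrays of the channel 1 orientation held all 3 probes.

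CCNG1, cyclin G1, a p53 target that feeds back on MDM2, stood at -0.09, 0.05, -0.36 and -0.57 on the 5-FU arrays, against 0.74 and 0.53 on the cisplatin arrays. The groups did not overlap (difference -1.10 ± 0.10, SE; limma adjusted p = 0.000519). The gene rose in cisplatin, and its fitted ratio of -0.24 in 5-FU passed narrowly (adjusted p = 0.037) although 1 of the 5-FU arrays was above 0. TOB1, an antiproliferative relative of the p53 target BTG2, ran the other way, at 1.76, 0.99, 1.02 and 0.59 in 5-FU, against 0.15 and 0.14 in cisplatin. All 5-FU arrays lay above both cisplatin arrays, yet the difference of 0.66 ± 0.20 did not pass (limma adjusted p = 0.0733). It passed between arrays of the same orientation, where its SE was 0.15 (adjusted p = 0.0203).

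Among repair genes with a p53 link, DDB2, which recognises damaged bases for nucleotide excision repair, stood at 1.09, 0.99, 0.43 and 0.77 on the 5-FU arrays, against 1.62 and 1.72 on the cisplatin arrays. It rose in both drugs, less so on every 5-FU array (difference -1.07 ± 0.12, SE; limma adjusted p = 0.00102). XPC, its partner in damage recognition, lacked a value on 1 5-FU array. The other 3 gave -0.07, 0.27 and 0.44, against 1.39 and 1.76 on the cisplatin arrays. The difference between arrays of the same orientation was -1.22 ± 0.13 (SE; limma adjusted p = 0.00105). RPA2, a subunit of the protein that coats single-stranded DNA, differed likewise. It stood at -0.08, -0.31 and -0.51 on 3 5-FU arrays, against 1.17 and 0.91 on the cisplatin arrays (-1.45 ± 0.14, SE, between arrays of the same orientation; limma adjusted p = 0.00065).

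In the excision repair list as a whole, 5 of 24 genes could be tested. CDK7 and DDB2 were lower in 5-FU, and the median difference was -0.23. CDK7, the kinase of the transcription and repair factor TFIIH, was at -0.74, -0.79, -0.69 and -0.62 in 5-FU, against -0.16 and -0.19 in cisplatin. Its call was lost without the first 5-FU replicate and without the first cisplatin replicate. None of the 5 tested genes of crosslink and recombination repair differed by limma, and none had an unadjusted p under 0.05. Their differences ran between -0.30 and 0.24. Between arrays of the same orientation 8 could be tested, and ATM, a kinase activated by broken DNA, was higher in 5-FU. It stood at 0.20, 0.08 and -0.16 on 3 5-FU arrays, against -0.71 and -0.86 on the cisplatin arrays (0.75 ± 0.13, SE; limma adjusted p = 0.0071).

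The death and survival targets of p53 were measured in part. Of 20 listed, 12 are on the array and 6 could be tested, with CYFIP2 and TNFRSF10C lower in 5-FU, none higher, and a median difference of -0.10. EI24, a protein of the endoplasmic reticulum induced by p53, was raised in both drugs. Its ratios were 0.74, 0.66, 0.50 and 0.33 on the 5-FU arrays, against 0.94 and 0.64 on the cisplatin arrays, and the groups overlapped. The difference was -0.38 with a 95% interval of -0.73 to -0.03 (limma adjusted p = 0.161), so an equal rise was not shown.

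FAS, the death receptor, stood at 0.53, 0.40 and 1.04 on the 3 5-FU arrays that had a value, against 1.16 and 1.60 on the cisplatin arrays. Between arrays of the same orientation the difference of -0.66 ± 0.22 did not pass (limma adjusted p = 0.0811). PMAIP1, the BH3-only protein also called NOXA, was at 0.39, 0.02 and 0.22 in 5-FU, against 0.83 and 0.51 in cisplatin. That difference passed in the same orientation (-0.55 ± 0.14, SE; limma adjusted p = 0.0365). TP53I3, an oxidoreductase induced by p53, had ratios of 1.05, 0.47, 0.72 and 0.28 in 5-FU, against 0.18 and 0.48 in cisplatin, groups that overlapped. It rose in 5-FU (limma adjusted p = 0.0132), and the difference between the drugs did not pass (0.17 ± 0.20, SE; adjusted p = 0.677).

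CYFIP2, a p53 target that regulates actin, stood at 0.38, -0.08, -0.42 and -0.21 on the 5-FU arrays, against 0.54 and 0.41 on the cisplatin arrays. TNFRSF10C, a decoy receptor for the death ligand TRAIL, stood at 0.00, 0.11, 0.08 and -0.06 in 5-FU, against 0.37 and 0.42 in cisplatin. Both lay below cisplatin on every 5-FU array, but each call was lost when 1 replicate of either drug was left out, the first 5-FU and the first cisplatin replicate for CYFIP2 and the second of each drug for TNFRSF10C. Of the caspases and BCL2 relatives, 5 of 24 could be tested. None differed by limma, none had an unadjusted p under 0.05, and the differences lay between -0.12 and 0.15.

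**Figure D2:**
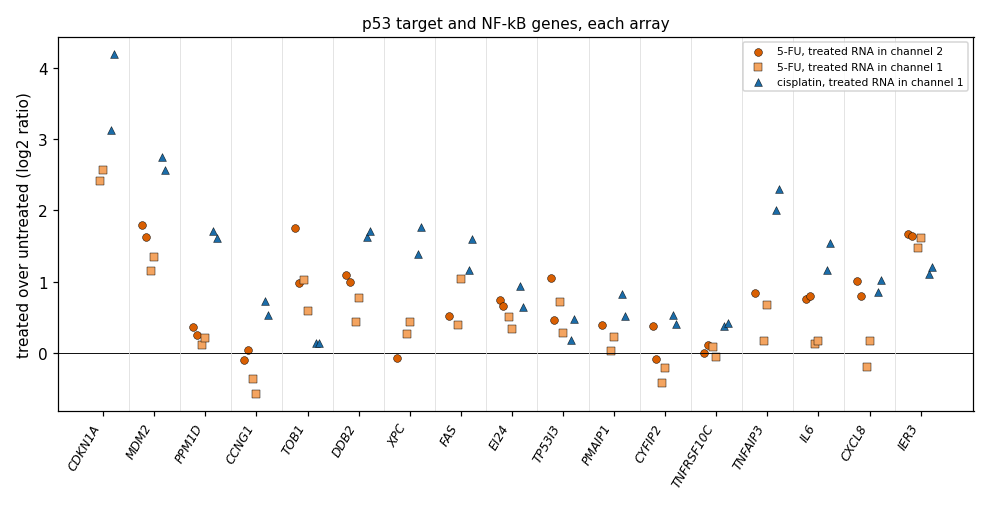
Log2 ratio of drugged over untreated RNA on each array (vertical axis) for p53 target and NF-kB genes (horizontal axis); circles and squares are 5-FU arrays of the 2 orientations and triangles are cisplatin arrays. 5-FU lies below cisplatin for CDKN1A, MDM2, PPM1D (averaged over its probes), CCNG1, DDB2, XPC and TNFAIP3, and above it for TOB1 and IER3.

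NF-kB is the transcription factor of inflammatory signalling, and its target genes did not move as a block. Of 23 listed, 7 could be tested, with CXCL8 and IL6 lower in 5-FU, none higher, and a median difference of -0.03. TNFAIP3, the enzyme A20 that damps NF-kB, stood at 0.84, 0.17 and 0.68 on the 3 5-FU arrays with a value, against 2.01 and 2.30 on the cisplatin arrays. The groups lay far apart, with a difference of -1.73 ± 0.17 between arrays of the same orientation (SE; limma adjusted p = 0.00068). IL6, an inflammatory cytokine, stood at 0.75, 0.80, 0.13 and 0.17 on the 5-FU arrays, against 1.17 and 1.55 on the cisplatin arrays. The difference was -1.21 ± 0.13 (SE; limma adjusted p = 0.00115), with all 5-FU arrays above 0 and below both cisplatin arrays.

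CXCL8, the chemokine interleukin 8, followed the orientation of the 5-FU arrays. It stood at 1.01 and 0.79 in the channel 2 orientation and -0.20 and 0.17 in the channel 1 orientation of 5-FU, against 0.86 and 1.02 on the cisplatin arrays. The groups overlapped, and its difference of -0.96 ± 0.11 (SE; limma adjusted p = 0.00152) did not pass when the 5-FU arrays of the channel 2 orientation were used alone. IER3, an early response gene under the control of both p53 and NF-kB, stood at 1.67, 1.64, 1.48 and 1.61 in 5-FU, against 1.11 and 1.20 in cisplatin. It rose in both drugs. All 5-FU arrays lay above both cisplatin arrays, and the difference of 0.39 ± 0.11 lay at the threshold (limma adjusted p = 0.0508), which it passed between arrays of the same orientation (adjusted p = 0.0392). PLAU, the urokinase protease, stood at 0.68, 0.31 and 0.68 on 3 5-FU arrays, against 1.10 and 1.02 in cisplatin (-0.56 ± 0.16, SE, in the same orientation; limma adjusted p = 0.0448).

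HMOX1, heme oxygenase 1, which degrades heme and is induced by oxidative stress, had the largest difference in favour of 5-FU among genes whose arrays did not overlap. It stood at 2.93, 2.62, 2.13 and 2.13 on the 5-FU arrays, against -0.02 and 0.15 on the cisplatin arrays. All 4 5-FU arrays were above 2 and both cisplatin arrays near 0. The difference was 2.07 ± 0.13 (SE; limma adjusted p = 0.000208), a 4.19-fold higher ratio in 5-FU. The fitted cisplatin ratio of 0.38 also passed (adjusted p = 0.0427), which kept the gene out of the classes; without the orientation term it was particular to 5-FU.

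The other genes of the oxidative stress list did not follow HMOX1. All 10 on the array could be tested, with HMOX1 higher and AKR1C1, SOD2 and TXNIP lower in 5-FU, and a median difference of -0.24. TXNIP, which binds thioredoxin and limits glucose uptake, stood at 0.16, 0.03, -0.09 and -0.02 on the 5-FU arrays, against 1.93 and 2.16 on the cisplatin arrays. It rose in cisplatin alone of the 2 drugs, with a difference of -2.10 ± 0.13 (SE; limma adjusted p = 0.000208) or a 4.28-fold lower ratio in 5-FU. SLC7A11, the cystine transporter that feeds glutathione synthesis, fell in both drugs. Its ratios were -1.60, -1.85, -1.12 and -1.54 in 5-FU, against -1.07 and -1.26 in cisplatin, and the groups overlapped (difference -0.16, 95% interval -0.48 to 0.15; limma adjusted p = 0.512).

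TXNRD1, thioredoxin reductase, fell in both drugs as well, at -0.30, -0.62, -1.03 and -1.19 in 5-FU, against -0.73 and -0.87 in cisplatin. GCLM, a subunit of the enzyme that makes the glutathione precursor, stood at 0.12, 0.16, -0.17 and 0.03 in 5-FU, against -0.53 and -0.50 in cisplatin. It alone passed of 5 tested genes of cisplatin uptake, export and thiols (0.45 ± 0.08, SE; limma adjusted p = 0.011), although all 5 had an unadjusted p under 0.05. MT1X, a metallothionein that binds metals, passed lower in 5-FU between arrays of the same orientation (-0.39 ± 0.10, SE; limma adjusted p = 0.0382). The 2 probes of GCLM disagreed, with 1 carrying the whole difference, and the GCLM call was lost without the second 5-FU replicate. The calls of AKR1C1 and SOD2 were also lost when single replicates were left out, and SOD2 reversed without the orientation term.

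**Figure D3:**
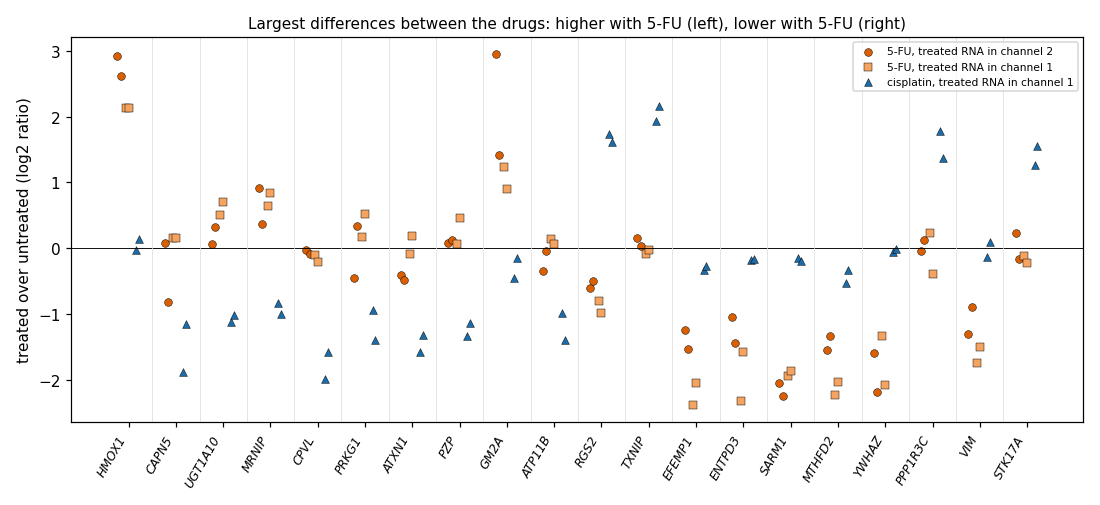
Log2 ratio on each array (vertical axis) for the 10 genes with the largest differences in each direction whose 5-FU arrays all lie on 1 side of both cisplatin arrays (horizontal axis); circles and squares are 5-FU arrays of the 2 orientations and triangles are cisplatin arrays. HMOX1 and GM2A are high in 5-FU, TXNIP, PPP1R3C and STK17A are high in cisplatin, and CAPN5, UGT1A10, MRNIP, CPVL, PRKG1, ATXN1, PZP and ATP11B are low in cisplatin.

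The largest difference of all lay in RGS2, a regulator that shortens signalling through G proteins. It stood at -0.61, -0.50, -0.80 and -0.99 on the 5-FU arrays, against 1.74 and 1.62 on the cisplatin arrays. It fell in 5-FU and rose in cisplatin, with a difference of -2.57 ± 0.08 (SE; limma adjusted p = 1.11e-05) or a 5.95-fold lower ratio in 5-FU. Its ratios in the other 3 drugs, between -0.50 and -0.32, had the sign seen in 5-FU. RGS2 belongs to the list of immediate early and MAP kinase feedback genes, of which 10 of 24 could be tested. In that list DUSP2, FOSL2, KLF10 and RGS2 were lower in 5-FU, none was higher, and the median difference was -0.55. NR4A1 passed lower too between arrays of the same orientation, and the DUSP2 call was lost without the second 5-FU replicate.

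KLF10, an early response factor of TGF-beta signalling, stood at 0.79, -0.34, 0.04 and 0.06 on the 5-FU arrays, against 1.42 and 1.30 on the cisplatin arrays. It rose in cisplatin and did not pass in 5-FU, with a difference of -1.31 ± 0.23 (SE; limma adjusted p = 0.00911). FOSL2, a partner in the AP-1 factor, has 2 probes, of which 1 had no 5-FU value. The common probe stood at -0.03, 0.31, 0.48 and 0.77 in 5-FU, against 1.76 and 2.39 in cisplatin (difference -1.45 ± 0.34, SE; limma adjusted p = 0.046). The FOSL2 call was lost without the first 5-FU replicate and without the second cisplatin replicate. MYC, which drives growth, showed no difference past the threshold (-0.08; limma adjusted p = 0.764).

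In the same class with cisplatin up, PPP1R3C, which targets a phosphatase to glycogen, stood at -0.05, 0.13, 0.23 and -0.39 on the 5-FU arrays, against 1.78 and 1.37 on the cisplatin arrays. STK17A, a kinase of the death-associated family, stood at 0.23, -0.17, -0.13 and -0.23 in 5-FU, against 1.26 and 1.55 in cisplatin. The 5-FU arrays scattered about 0 for both genes and lay far below cisplatin, with differences of -1.65 ± 0.22 and -1.58 ± 0.16 (SE; limma adjusted p = 0.00276 and 0.000828).

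Of the opposite genes that were up in 5-FU, MRNIP, a partner of the MRE11 complex of double-strand break repair, stood at 0.92, 0.36, 0.64 and 0.84 in 5-FU, against -0.83 and -0.998 in cisplatin. UGT1A10, which conjugates glucuronic acid to drugs and metabolites, stood at 0.07, 0.33, 0.50 and 0.69 in 5-FU, against -1.12 and -1.02 in cisplatin. Their differences were 1.66 ± 0.14 and 1.67 ± 0.13 (SE; limma adjusted p = 0.000438 and 0.000243). Negative ratios were not confined to cisplatin: the arrays of the other 3 drugs gave -1.89 to -0.41 for MRNIP and -1.88 to -1.36 for UGT1A10. TNKS1BP1, IMPDH1 and CALCRL were opposite in the same direction, with differences of 1.05, 0.95 and 0.73. The calls of TNKS1BP1 and IMPDH1 were lost without the second 5-FU replicate, and between arrays of the same orientation TNKS1BP1 was particular to cisplatin and IMPDH1 to 5-FU.

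Of the opposite genes that were down in 5-FU, H3-3B, which encodes the replacement histone H3.3, stood at -0.13, -0.56, -1.07 and -0.97 in 5-FU, against 0.25 and 0.29 in cisplatin. OXA1L, which inserts proteins into the inner mitochondrial membrane, stood at -0.50, -0.21, -0.68 and -0.61 in 5-FU, against 0.45 and 0.30 in cisplatin. Both kept their class without the orientation term (differences -1.29 ± 0.09 and -1.02 ± 0.12, SE; limma adjusted p = 0.000208 and 0.00127). HIF1A, the oxygen-regulated transcription factor, stood at -0.37, -0.34, -1.29 and -1.36 in 5-FU, against 0.17 and 0.09 in cisplatin. It fell in 5-FU, whereas its fitted cisplatin ratio of 0.62 was well above both cisplatin arrays. Without the orientation term HIF1A, DECR1, DUSP2 and TUBB2A were particular to 5-FU rather than opposite.

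TK1, the cytosolic thymidine kinase that salvages thymidine, was opposite too. It stood at -0.84, -0.42, -0.21 and -0.08 on the 5-FU arrays, against 0.60 and 0.82 on the cisplatin arrays, and the groups did not overlap. The difference was -0.85 ± 0.16 (SE; limma adjusted p = 0.0122), and the call was lost without the first 5-FU replicate and without the second cisplatin replicate. MCM7, a subunit of the replicative helicase, averaged -0.38, -0.59, -0.26 and -0.15 in 5-FU, against 0.79 and 0.55 in cisplatin (difference -0.88 ± 0.12, SE; limma adjusted p = 0.00328). One of its 2 probes carried the difference, with 1.51 and 1.01 in cisplatin, and the other gave 0.07 and 0.10. Between arrays of the same orientation TK1 and MCM7 were particular to cisplatin rather than opposite.

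Of the genes of thymidylate and pyrimidine metabolism, the pathway that 5-FU enters, 8 of 31 could be tested. MTHFD2, SHMT2 and TK1 were lower and SLC29A1 and UPP1 higher in 5-FU, with a median difference of -0.10. MTHFD2, a mitochondrial enzyme that makes one-carbon units for nucleotide synthesis, stood at -1.55, -1.33, -2.23 and -2.03 on the 5-FU arrays, against -0.53 and -0.33 on the cisplatin arrays. It fell on every 5-FU array more than on either cisplatin array (difference -1.70 ± 0.13, SE; limma adjusted p = 0.000243). Without the orientation term its fall in cisplatin passed too, which made it shared. SHMT2, which feeds the same mitochondrial pathway, stood at -0.89, -0.88, -0.38 and -0.43 in 5-FU, against 0.01 and 0.02 in cisplatin.

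UPP1, uridine phosphorylase, which can convert 5-FU to a nucleoside, stood at -0.14, 0.13, 0.13 and 0.02 on the 5-FU arrays, against -0.70 and -0.36 on the cisplatin arrays. The gene fell in cisplatin and did not pass in 5-FU, and the difference was 0.60 ± 0.13 (SE; limma adjusted p = 0.0223). The calls of SHMT2, UPP1 and SLC29A1 were lost when single replicates were left out. That of SLC29A1, a nucleoside transporter, was also lost without the orientation term and between arrays of the same orientation (limma adjusted p = 0.172 and 0.0908). TYMS, thymidylate synthase itself, had 0.35 and -0.26 on 2 5-FU arrays, against 0.03 and 0.34 on the cisplatin arrays, and could not be tested.

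Base excision and mismatch repair remove wrong or damaged bases, uracil and 5-FU residues in DNA included. Of 21 genes listed, 6 could be tested; APEX1, MSH6, PARP1 and PMS2 were lower in 5-FU and none was higher, with a median difference of -0.72. APEX1, the nuclease that cuts DNA at lost bases, stood at -0.82, -0.82, -1.004 and -0.88 on the 5-FU arrays, against -0.08 and 0.12 on the cisplatin arrays. MSH6, which recognises mispaired bases, stood at -0.86, -0.91, -1.10 and -0.79 in 5-FU, against 0.06 and 0.18 in cisplatin. PARP1, which marks DNA breaks with poly(ADP-ribose), stood at -0.88, -0.92, -1.01 and -0.88 in 5-FU, against 0.06 and 0.13 in cisplatin. For these 3 genes the 5-FU arrays lay close together in both orientations and far below cisplatin, with differences of -0.96 ± 0.10, -1.06 ± 0.10 and -1.04 ± 0.11 (SE; limma adjusted p = 0.000711, 0.000647 and 0.000841).

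The other 3 drugs gave -0.22 to 0.40 for APEX1, MSH6 and PARP1. EXO1, the nuclease that resects mismatched DNA, had 3 5-FU values of -0.91, -1.05 and -1.02, against 0.49 and 0.54 in cisplatin (-1.55 ± 0.09, SE, in the same orientation; limma adjusted p = 0.000136). MPG, a glycosylase that removes alkylated bases, passed lower there as well (-1.23 ± 0.30, SE; limma adjusted p = 0.0265). PMS2 was less stable. It stood at -0.86, -0.38, -0.47 and -1.15 in 5-FU, against -0.30 and -0.37 in cisplatin, and its call was lost without the orientation term, between arrays of the same orientation, under the replicate block and without the second 5-FU replicate or either cisplatin replicate.

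Most of the measured genes of cytosolic ribosomal proteins, which build the translating ribosome, fell in 5-FU. All 12 on the array could be tested; 8 were lower in 5-FU than in cisplatin, none was higher, and the median difference was -0.46. Against untreated RNA, 10 of the 12 fell in 5-FU and 2 in cisplatin. RPL12 stood at -1.45, -1.53, -1.51 and -1.26 on the 5-FU arrays, against -0.10 and 0.04 on the cisplatin arrays. RPL10A stood at -1.53, -1.89, -1.29 and -1.40 in 5-FU, against -0.09 and 0.06 in cisplatin. Both encode proteins of the large subunit, and their differences were -1.36 ± 0.14 and -1.33 ± 0.11 (SE; limma adjusted p = 0.000735 and 0.000338).

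RPL17 and RPL3, also of the large subunit, differed by -1.22 ± 0.12 and -1.19 ± 0.15, and RPL14 by -1.02 ± 0.11 (SE). The 3 small-subunit genes that passed, RPS23, RPS3A and RPS20, differed by only -0.50, -0.42 and -0.35, and each call was lost when single replicates were left out. RPL28 fell in both drugs (difference 0.01; limma adjusted p = 0.957), at -0.53, -0.41, -0.18 and -0.19 in 5-FU, against -0.12 and -0.27 in cisplatin. Ribosomal protein genes have many processed pseudogenes, and cross-hybridisation of the probes was not tested.

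Of the genes of ribosome assembly and RNA decay, 8 of 35 could be tested, with NCL and NOP56 lower in 5-FU and a median difference of -0.12. NCL, nucleolin, stood at -0.90, -0.42, -1.32 and -1.26 in 5-FU, against -0.48 and -0.48 in cisplatin, and the groups overlapped (difference -0.81 ± 0.13, SE; limma adjusted p = 0.00592). NOLC1, a nucleolar chaperone of small RNPs, fell in both drugs, at -0.84, -1.02, -0.38 and -0.40 in 5-FU, against -0.43 and -0.75 in cisplatin. NOP56, a core protein of box C/D RNPs, differed by -0.45, a call lost under the replicate block and when single replicates of either drug were left out. Between arrays of the same orientation EXOSC10 passed lower and NOP2 higher in 5-FU.

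Chaperone genes did not move as a block. Of 10 tested, CCT4, CCT5, HSP90AB1, HSPA4, HSPA9 and HSPD1 were lower in 5-FU than in cisplatin, none was higher, and the median difference was -0.58. HSPD1, the mitochondrial chaperonin HSP60, stood at -1.09, -1.18, -1.66 and -2.12 on the 5-FU arrays, against -0.57 and -0.69 on the cisplatin arrays. All 5-FU arrays lay below cisplatin (difference -1.26 ± 0.11, SE; limma adjusted p = 0.000466), and without the orientation term HSPD1 was shared. HSPA8, the constitutive HSP70, and BAG1, its cofactor, rose in both drugs instead. HSPA8 stood at 0.89, 0.95, 0.32 and 0.36 in 5-FU, against 0.26 and 0.41 in cisplatin, and BAG1 at 0.82, 0.98, 0.85 and 0.50 in 5-FU, against 0.58 and 0.44 in cisplatin. Neither difference between the drugs passed (limma adjusted p = 0.998 and 0.452).

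HSPA4, a nucleotide exchange factor for HSP70, scattered widely at -1.29, -0.08, -1.30 and -1.01 in 5-FU, against -0.25 and -0.28 in cisplatin. Its call was lost without the orientation term and without either cisplatin replicate. The CCT4 call was lost without either 5-FU replicate and without the second cisplatin replicate. Calls for HSP90AB1 and HSPA9 were lost without the first 5-FU replicate and without the second cisplatin replicate, and for HSPA9 1 of the 2 probes carried the difference.

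**Figure D4:**
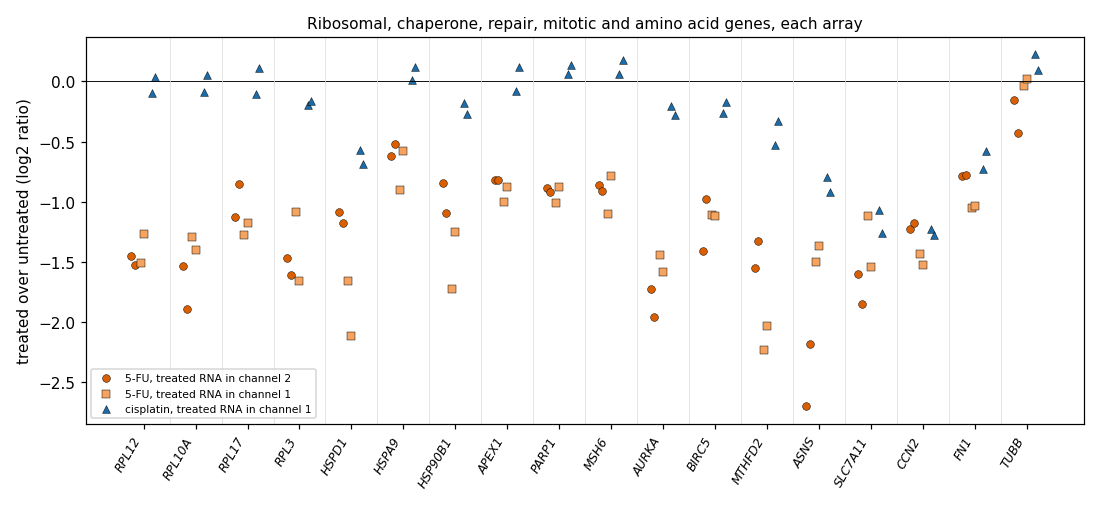
Log2 ratio on each array (vertical axis) for ribosomal, chaperone, repair, mitotic, metabolic and matrix genes (horizontal axis); circles and squares are 5-FU arrays of the 2 orientations and triangles are cisplatin arrays. For the ribosomal genes, HSPA9, APEX1, PARP1 and MSH6, 5-FU lies between -1.89 and -0.52 and cisplatin between -0.20 and 0.18, whereas SLC7A11 and CCN2 are low in both drugs.

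The amino acid response is a programme by which cells short of amino acids raise synthesis and transport genes. Of 13 tested genes of this programme and of folding in the endoplasmic reticulum, AARS1, ASNS, HSP90B1, PYCR1, SLC7A1 and YARS1 were lower in 5-FU, none was higher, and the median difference was -0.11. ASNS, asparagine synthetase, stood at -2.70, -2.18, -1.50 and -1.36 on the 5-FU arrays, against -0.79 and -0.92 on the cisplatin arrays. It fell in both drugs and lower on every 5-FU array, with a difference of -0.57 ± 0.14 (SE; limma adjusted p = 0.0284). That call was lost without the first 5-FU replicate and without either cisplatin replicate.

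HSP90B1, the endoplasmic reticulum form of HSP90, stood at -0.84, -1.10, -1.73 and -1.25 in 5-FU, against -0.18 and -0.27 in cisplatin (difference -1.27 ± 0.10, SE; limma adjusted p = 0.000233). PYCR1, the last enzyme of proline synthesis, stood at -1.84, -1.67, -2.64 and -0.97 in 5-FU, against -0.65 and -0.63 in cisplatin. All 5-FU arrays were lower than cisplatin, but the difference of -1.16 ± 0.28 did not pass between arrays of the same orientation (limma adjusted p = 0.113). The PYCR1 call was also lost without the first 5-FU replicate and without either cisplatin replicate. AARS1 stood at 0.03, 0.75, -1.18 and -0.81 in 5-FU, against -0.002 and -0.20 in cisplatin, and the groups overlapped. The AARS1 call was lost without the orientation term, without the first 5-FU replicate and without either cisplatin replicate. Its difference reversed to 0.49 when only the 5-FU arrays of the channel 2 orientation were used. The SLC7A1 arrays overlapped, and its call was lost when any 1 replicate was left out, without the orientation term and between arrays of the same orientation (limma adjusted p = 0.274 and 0.052 in the last 2). The YARS1 call was lost without the second 5-FU replicate. SLC7A5, an amino acid transporter, passed higher in 5-FU between arrays of the same orientation (0.37 ± 0.10, SE; limma adjusted p = 0.0365). TRIB3 and DDIT3, which report stress of the endoplasmic reticulum, did not pass in either drug.

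Some mitotic genes fell in 5-FU. Of 12 tested, AURKA, BIRC5, HMMR and KIF2C were lower in 5-FU than in cisplatin, none was higher, and the median difference was -0.20. AURKA, a kinase of the mitotic spindle, stood at -1.73, -1.96, -1.44 and -1.58 on the 5-FU arrays, against -0.21 and -0.28 on the cisplatin arrays. It fell in both drugs and more on every 5-FU array (difference -1.26 ± 0.11, SE; limma adjusted p = 0.000386). BIRC5, survivin, which serves in cell division and blocks cell death, stood at -1.41, -0.97, -1.11 and -1.12 in 5-FU, against -0.27 and -0.17 in cisplatin (difference -0.90 ± 0.11, SE; limma adjusted p = 0.00155).

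KIF2C, a motor that dismantles microtubules, stood at 0.04, -0.30, 0.04 and -0.13 in 5-FU, against 1.02 and 0.92 in cisplatin, where it rose (difference -1.01 ± 0.16, SE; limma adjusted p = 0.00592). AURKB, the partner kinase of BIRC5, fell in both drugs, and its difference did not pass (-0.35 ± 0.16, SE; limma adjusted p = 0.231). HMMR differed by -0.70 ± 0.10, and 1 of its 2 probes carried that difference. CDK1 and CENPA passed lower in 5-FU between arrays of the same orientation. Of 10 tested genes of G1 and S phase, MCM7 alone passed, and the median difference was -0.15. Between arrays of the same orientation 18 could be tested, and CCNE1, cyclin E1, and POLA1, a subunit of the primase-polymerase complex, were lower in 5-FU as well (-0.65 ± 0.14 and -0.94 ± 0.12, SE; limma adjusted p = 0.0163 and 0.00208).

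Among cytoskeletal and matrix genes, 5 of 14 tested were lower in 5-FU than in cisplatin (ACTG1, FN1, MYH9, MYL12A and VIM), none was higher, and the median difference was -0.39. VIM, the intermediate filament vimentin, stood at -1.31, -0.89, -1.75 and -1.50 on the 5-FU arrays, against -0.14 and 0.09 on the cisplatin arrays. The gap was wide on every array (difference -1.60 ± 0.15, SE; limma adjusted p = 0.000519). CCN2, a matricellular growth factor, fell in both drugs, at -1.23, -1.17, -1.43 and -1.53 in 5-FU, against -1.23 and -1.28 in cisplatin. The groups overlapped, and the difference was -0.23 with a 95% interval of -0.44 to -0.01 (limma adjusted p = 0.175). FN1, fibronectin, fell in both drugs, and its difference of -0.39 ± 0.10 (SE; limma adjusted p = 0.0433) was lost without the orientation term, without centring and when any 1 replicate was left out. The calls of ACTG1 and MYH9 were also lost when any 1 replicate was left out, and that of ACTG1 without the orientation term (limma adjusted p = 0.117), under which 3 genes of the list passed. CCN1 and SRF passed lower in 5-FU between arrays of the same orientation.

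ACTB, beta-actin, stood at -0.12, -0.20, -0.78 and -0.47 in 5-FU, against -0.22 and -0.34 in cisplatin, and its difference did not pass (limma adjusted p = 0.0569). TUBB, a beta-tubulin, did not pass either, at -0.16, -0.43, -0.03 and 0.02 in 5-FU, against 0.23 and 0.10 in cisplatin (-0.17 ± 0.10, SE; adjusted p = 0.35). Of 4 tubulins tested, TUBB2A was lower in 5-FU, a call lost without either 5-FU replicate. Of 10 genes of glycolysis and hypoxia, GPI, HIF1A and PFKP were lower and PDK1 higher in 5-FU, with a median difference of -0.09. The PDK1 call was lost when any 1 replicate was left out and that of GPI without the first 5-FU replicate, and HK1 passed higher in 5-FU between arrays of the same orientation. PFKP, the platelet form of phosphofructokinase, fell in both drugs, at -1.12, -1.40, -0.84 and -0.93 in 5-FU, against -0.34 and -0.21 in cisplatin.

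**Figure D5:**
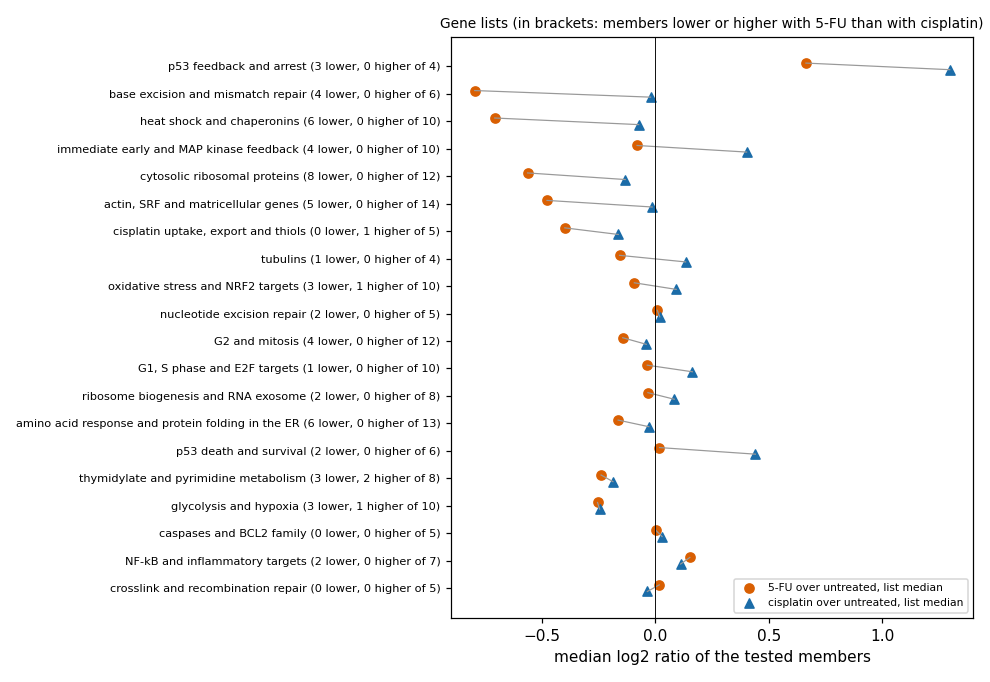
Median fitted log2 ratio of the tested members of each gene list (horizontal axis) in 5-FU (circles) and cisplatin (triangles), with lists in rows ordered by the median difference; brackets give how many members were lower or higher in 5-FU than in cisplatin. Base excision and mismatch repair, chaperones and ribosomal proteins show medians of -0.80, -0.71 and -0.56 in 5-FU, against -0.02, -0.07 and -0.13 in cisplatin.

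Outside the lists, the genes particular to 5-FU with the largest differences were again mostly low in 5-FU. EFEMP1, a matrix glycoprotein, stood at -1.25, -1.53, -2.38 and -2.05 on the 5-FU arrays, against -0.34 and -0.27 on the cisplatin arrays. YWHAZ, the adaptor protein 14-3-3 zeta, stood at -1.59, -2.18, -1.34 and -2.09 in 5-FU, against -0.06 and -0.01 in cisplatin. ENTPD3, a membrane enzyme that hydrolyses extracellular nucleotides, stood at -1.04, -1.44, -2.32 and -1.58 in 5-FU, against -0.18 and -0.16 in cisplatin. None of the 3 overlapped, and the differences were -1.91 ± 0.08, -1.68 ± 0.24 and -1.78 ± 0.17 (SE; limma adjusted p = 3.99e-05, 0.00372 and 0.00215). EFEMP1 was shared without the orientation term, since its cisplatin ratios then passed.

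SARM1, an enzyme that consumes NAD in damaged axons, stood at -2.06, -2.25, -1.94 and -1.87 in 5-FU, against -0.15 and -0.20 in cisplatin. Its fitted fall of 0.30 in cisplatin passed narrowly (limma adjusted p = 0.0378), so it counted as shared despite a difference of -1.73 ± 0.10 (SE; adjusted p = 0.000208). Without the orientation term it was particular to 5-FU.

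Of the 220 features particular to 5-FU, 30 were up. GM2A, the activator protein of ganglioside breakdown in lysosomes, stood at 2.95, 1.42, 1.23 and 0.90 on the 5-FU arrays, against -0.46 and -0.14 on the cisplatin arrays. GET3, which delivers tail-anchored proteins to the endoplasmic reticulum, stood at 1.15, 0.66, 1.20 and 0.43 in 5-FU, against -0.27 and -0.34 in cisplatin. Both were clear of cisplatin, with differences of 1.36 ± 0.29 and 1.13 ± 0.20 (SE; limma adjusted p = 0.0197 and 0.0085), although the GM2A call was lost without the first cisplatin replicate. IL11, a cytokine, LAMA2, a laminin chain, and ID1, an inhibitor of differentiation factors, differed by 0.87, 0.73 and 0.72, and each call was lost without at least 1 replicate. ID1 was opposite without the orientation term.

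The genes with the largest falls in cisplatin that did not pass in 5-FU had negative ratios in the other drugs too. CPVL, a serine carboxypeptidase-like protein, stood at -0.02, -0.09, -0.10 and -0.21 on the 5-FU arrays, against -1.99 and -1.59 on the cisplatin arrays. PZP, a protease inhibitor, stood at 0.08, 0.13, 0.07 and 0.46 in 5-FU, against -1.33 and -1.14 in cisplatin. ATXN1, ataxin 1, stood at -0.41, -0.48, -0.08 and 0.19 in 5-FU, against -1.59 and -1.32 in cisplatin. Arrays of cytarabine, paclitaxel and cytochalasin D gave -2.13 to -1.56 for CPVL, -2.11 to -1.42 for PZP and -2.13 to -1.19 for ATXN1.

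Those 3 genes differed by 1.64 ± 0.15, 1.50 ± 0.19 and 1.50 ± 0.24 (SE; limma adjusted p = 0.000549, 0.00194 and 0.00522). ATP11B, a lipid flippase, and PRKG1, a cyclic GMP-dependent kinase, differed by 1.29 ± 0.18 and 1.51 ± 0.27 in the same way, with -1.74 to -1.03 and -1.45 to -0.78 in the other drugs. CAPN5, a calpain protease, differed by 1.68 ± 0.33, and its call was lost under the replicate block, without either 5-FU replicate and without the first cisplatin replicate. The treated RNA of cisplatin and of the other 3 drugs was always in channel 1. The 5-FU arrays of that orientation lay between -0.21 and 0.46 for CPVL, PZP and ATXN1.

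Shared genes beyond the lists include ALDH3A1 and DUSP3 among those up and BRAP and PYGB among those down. ALDH3A1, an aldehyde dehydrogenase, stood at 0.86, 0.87, 0.33 and 1.19 on the 5-FU arrays, against 0.86 and 1.07 on the cisplatin arrays. The groups overlapped, with a difference of -0.20 and a 95% interval of -0.63 to 0.23 (limma adjusted p = 0.568). DUSP3, a phosphatase of MAP kinases, stood at 0.55, 0.75, 0.55 and 0.80 in 5-FU, against 0.92 and 0.72 in cisplatin. BRAP, which binds BRCA1 and dampens MAP kinase signalling, stood at -1.18, -1.06, -1.52 and -1.15 in 5-FU, against -0.94 and -0.95 in cisplatin. PYGB, brain glycogen phosphorylase, stood at -1.09, -1.25, -1.28 and -0.67 in 5-FU, against -0.68 and -0.96 in cisplatin. None of these 4 passed the test between the drugs, and the widest of their 95% intervals, for ALDH3A1, spanned -0.63 to 0.23. BRAP differed by -0.39 with a 95% interval of -0.68 to -0.10 (limma adjusted p = 0.083). Its 5-FU arrays all lay below both cisplatin arrays, so an equal fall was not shown.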

How the data were processed

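For each probe the authors deposited a log ratio between the channels, taken here as log2. Normalization, filter and log base: not given in the sources used here. Drug, dose, time, replicate and channel were read per the labels. A natural logarithm would change every size but no direction or call. Of 8170 probes, 5930 match 1 gene, 79 several and 2161 none. Probes of a gene were averaged (407 genes have more than 1), which gave 7739 features, and arrays were centred on their medians. The analysis had no spot intensities, and signal over background is therefore not known.

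limma 3.58.1 in R 4.3.3 was fitted to 10 replicates (2 for each of 5 drugs, which share 1 estimate of the spread) and 1 observation of the orientation effect, weighted 4, or 2 where 1 pair of 5-FU arrays gave it. A 5-FU replicate needs both orientations. The threshold was a Benjamini-Hochberg adjusted p of 0.05 over all features tested. The error of the orientation effect is assumed rather than measured. Errors for the difference between the drugs and for cisplatin against untreated RNA may therefore be too small. On simulated data for 5-FU against cisplatin (3686 features) the fit made 181 calls, 7 of them false. It found 42 of the 67 features changed by 0.5, 66 of the 67 changed by 1, and each of the 66 changed by 2. The simulated arrays of every drug carried the orientation effect seen with 5-FU, as the fit assumes. These counts therefore do not cover the case in which that effect differs between drugs.

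The drugs, gene lists and tests were chosen with earlier results of these data known. Genes were named by a rule: up to 10 of the largest non-overlapping differences each way, up to 5 each way in each class, up to 4 members per list, and MDM2, CDKN1A, PPM1D, DDB2, XPC, FAS, CCNG1, HMOX1, TXNIP, TNFAIP3, TYMS, ASNS, ACTB and TUBB; for list members beyond these the values were seen first. The main fit did not pair samples by replicate number. Deviations of replicate 1 from its drug's mean correlated at r = 0.042 between the drugs. With 2 replicates a drug this cannot show whether the samples were prepared in pairs. Alternatives are given at the end.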

Additional observations from a re-analysis of the deposited data

Results flagged for a closer look

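Of 90 named genes with a value on all 4 5-FU arrays, 3 had 1 array far from the other 3 by Dixon's test at the 95% level. Chance alone gives this in about 1 of 20 groups of independent values. The 4 arrays are 2 replicates in 2 orientations, so that rate may not hold here. In CAPN5 the outlying 5-FU array stood at -0.82 (gap over range 0.919), in GPI at -0.72 (0.918) and in PZP at 0.46 (0.849).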

How the results depend on the processing

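Of 79 named genes whose difference passed, 43 kept direction and call under all 17 alternatives apart from the size minimum, and 2 reversed. SOD2 reversed to 0.14 without the orientation term, with only the arrays of the 2 drugs, and with 1 orientation enough for a 5-FU replicate, and to 0.71 with only the 5-FU arrays of the channel 2 orientation, under which AARS1 reversed to 0.49. The cause was not tested.

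Counts of differences, of 5-FU and of cisplatin against untreated RNA, of shared features, of those particular to 5-FU or cisplatin, and of opposite ones are given below in this order. A minimum absolute ratio or difference of 1 gave 127, 76, 79, 6, 50, 29 and 0, where the zero is the limma count of opposite features with both ratios that large. With 1 orientation enough for a 5-FU replicate, a setting chosen after seeing the data under which more features can be tested, the counts of differences, 5-FU, shared, particular to 5-FU and particular to cisplatin were 858, 1070, 180, 411 and 250. With 5-FU arrays of the channel 1 orientation alone, differences numbered 933, 5-FU calls 1112 and features particular to 5-FU 407. Without the orientation term more features could be tested for cisplatin, and its calls numbered 1300 of 7146, with 43.8% of the calls higher. With the term they numbered 798 of 4883, with 52.3% of the calls higher. Averaging genes only over probes on all 6 arrays, also chosen after seeing the data, gave 511 differences, and the PPM1D difference of -0.08 then did not pass. Opposite features numbered 22 with the other 5-FU orientation alone, also chosen after seeing the data, and 17 with only the arrays of the 2 drugs.

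Leaving out 1 replicate, with the lone sample assumed to vary like the others, gave 330 to 504 differences, 464 to 609 5-FU calls, 341 to 527 cisplatin calls, 45 to 110 shared, 146 to 232 particular to 5-FU, 86 to 142 particular to cisplatin and 16 to 40 opposite features. With the replicate block the counts were 492, 577, 708, 100, 216, 143 and 35, and the calls of CAPN5, NOP56 and PMS2 were lost. Totals after leaving out a replicate do not show how many features kept their call or class. 2 replicates a drug, 1 orientation for cisplatin and the missing 5-FU values limit all counts.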
